A study of Mus musculus with 8 samples.

Results

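Fgf21, Bdh1 and Acat1 were examined across mouse liver RNA as a hormone and a pair of enzymes of the fasting response. Every non-control probe whose accession maps to one of these symbols was taken, which gave 5 of 55681 distinct probes and 3 of 20284 named genes. Fgf21 and Acat1 had 1 probe each and Bdh1 had 3. All 3 genes were among the 14582 tested, Fgf21 through the adult wild-type sample alone. Gene expression had been measured on 8 single-colour arrays, 2 for each of 4 liver RNA samples. The adult samples were TIS21-knockout (KO) and TIS21-wild type (WT) livers of males aged 10 weeks, fasted for 20 h. The fetal samples were KO and WT pools of livers of both sexes from embryonic day 13.5, each from more than 3 fetuses of a litter. TIS21 is another name of Btg2, and the series' title gives the mice as C57BL/6J. No fed adults were analysed here, so no effect of fasting itself was measured. The sources used here do not give the allele, the exons removed or the number of adult mice per sample. The 2 arrays of a group were technical duplicates of 1 RNA sample, so every p-value below measures array error and compares samples, not genotypes.

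In a fasting liver, fatty acids released from fat stores are oxidised in mitochondria to acetyl-CoA, and part of it is turned into ketone bodies that other organs burn. Acat1 encodes the mitochondrial thiolase that joins and splits acetoacetyl-CoA (not the sterol acyltransferase once called by the same name). Bdh1 encodes the dehydrogenase that interconverts acetoacetate and beta-hydroxybutyrate. Fgf21 encodes a hormone that the liver secretes in fasting and under amino acid or mitochondrial stress. It acts through FGF receptors together with the co-receptor beta-klotho (Klb), and its gene is known as a target of the nuclear receptor PPAR-alpha and of the transcription factor ATF4.

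The bases before the Fgf21 start site are shown because this gene had the largest loss of signal of the 3. The window holds the 250 bases before the start in RefSeq, build GRCm38.p6, at chr7:45615491-45615740 on the minus strand, and capitals mark the motif matches.
Fgf21: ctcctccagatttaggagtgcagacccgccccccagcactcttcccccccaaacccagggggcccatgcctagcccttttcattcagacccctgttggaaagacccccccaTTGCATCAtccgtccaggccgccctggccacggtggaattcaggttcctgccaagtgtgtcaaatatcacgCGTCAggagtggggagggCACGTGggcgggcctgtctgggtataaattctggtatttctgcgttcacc
The ATF4 composite element TGATGNAA, searched on both strands as were all motifs, matched on the reverse strand as TTGCATCA from -139 to -132, counted from the start site. It occurs in 3.45% of 32851 such windows. The E-box CACGTG lay at -50 to -45 (6.02% of windows), and the shortened cyclic AMP response element TGACG lay on the reverse strand at -68 to -64 (17.8%). The whole cyclic AMP response element TGACGTCA (1.55%), the nuclear receptor core site AGGTCA (14%) and the DR1 element AGGTCANAGGTCA, which is built from that core site (0.0335%), were not in the window. Neither of 2 Bdh1 windows, before the starts of its 2 listed promoters, held any of the 6 motifs. These are matches of letters only.

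Between 38.5% and 42.3% of probes were well above background on each adult array. Of the fetal arrays, 3 had 48.7% to 49.8% and the first fetal WT array had 61.1%. The 75th percentile of processed signal was 170 to 171 on adult KO and 132 to 133 on adult WT arrays, and 278 to 279 on fetal KO and 325 to 334 on fetal WT arrays. Values were scaled to that percentile, so part of every scaled difference comes from the scale itself. The targeted gene Btg2 was well above background on all 4 WT arrays and on none of the 4 KO arrays. Whether its probe lies in the deleted part is not known here. Of 11 hepatocyte markers measured on the adult arrays, all 11 were well above background on both arrays of adult KO and of adult WT. Their summed scaled signal, in multiples of the 75th percentile, was 6430 to 6520 in adult KO and 7450 to 7600 in adult WT. That lower sum in adult KO is on scaled values, and the adult KO arrays had the higher 75th percentile. A call below means 2-fold or more and an adjusted p under 0.05 in limma. Of the 11 hepatocyte markers 0 were called between the adult samples, with a median difference of -0.18 against -0.10 over all genes. Of 13 macrophage and Kupffer cell markers 12 were called higher in adult KO, against 4.95% of all genes. The 12 include Cd163, which was tested through adult KO alone. The sum of these 13 was 374 to 381 in adult KO against 68.2 to 71.5 in adult WT. All 8 arrays lay on 1 slide, and each group filled its own slide column, so column and group cannot be told apart.

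Fgf21 was measured in 1 of the 4 samples. Its processed signal was 9.01 and 6.01 on the adult KO arrays, against 655 and 621 on the adult WT arrays. It was 3.59 and 3.78 in the fetal KO pool and 2.89 and 3.4 in the fetal WT pool. The probe was well above background on both adult WT arrays and on none of the other 6, so the adult WT sample stood apart and the other 3 have no order among them. Scaled to the 75th percentile, adult KO was at least 31.7-fold lower than adult WT. The fitted difference was -6.80 ± 0.27 on the log2 scale (adjusted p = 1.5e-06, limma), but it rests on a KO signal within background. Within slide row 1 it was -6.54 and within row 2 it was -7.05, and on unscaled signals it was -6.44. On the same scale adult WT was at least 105-fold higher than fetal WT. The fitted stage difference was 8.98 ± 0.27 (adjusted p = 2.1e-08, limma), against 7.67 on unscaled signals. Both bounds hold for this scaling only. They use the lowest signal well above background on each array as a working floor, and some dim probes read higher than it. With normexp background correction the fitted differences were -3.61 for adult KO against adult WT and 4.80 for adult WT against fetal WT, smaller than these bounds. No fold is given for fetal KO against fetal WT, nor for adult KO against fetal KO, since neither sample was well above background in these comparisons. With both fetal levels in background, the difference between the adult and the fetal knockout effect has no measured size for Fgf21.

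**Figure D1:**
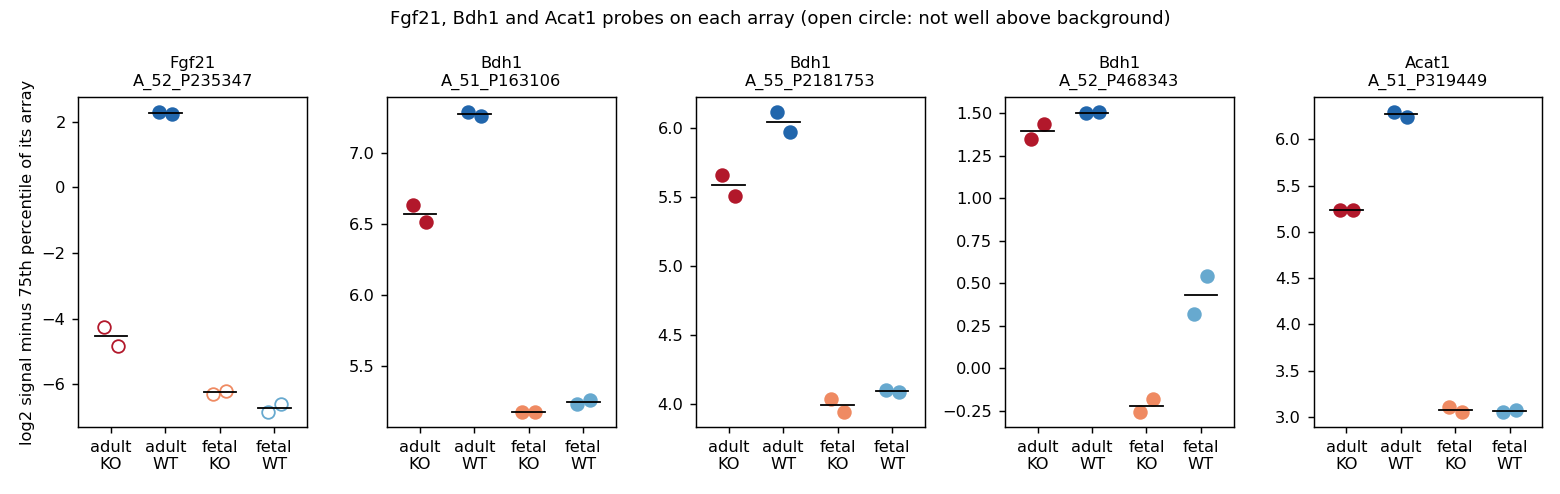
Scaled log2 signal (vertical axis, a separate scale in each panel) of each probe of Fgf21, Bdh1 and Acat1 on the 8 arrays, by sample; points are arrays, bars their mean, open circles were not well above background. Fgf21 was above background only on the 2 adult WT arrays, while Acat1 and the first Bdh1 probe were lower in adult KO than in adult WT and lower again in both fetal pools.

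Fgf21 is also made outside hepatocytes, in pancreas and fat. Of 15 pancreatic acinar markers on the array, 8 were dim on both adult KO arrays and 10 on both adult WT arrays. Their summed scaled signal was 16.1 to 16.3 in adult KO and 13.3 to 13.9 in adult WT. Of the 9 tested, Reg1 was called, at least 4.32-fold higher in adult KO, the sample through which alone it was tested. Among intestinal epithelium markers all 8 tested were called, 6 higher and 2 lower (Fabp2 and Lgals4), against 4.95% and 2.52% of all genes. The sum of 14 was 98.5 to 99.7 in adult KO against 249 to 252 in adult WT. Most of that sum was Fabp2, which read 15050 and 15060 in adult KO against 31040 and 30620 in adult WT. The sum therefore runs against the 6 called higher. Of those, Vil1, Muc13, Krt20, Sis and Reg3b were dim on both adult WT arrays. Sis and Reg3b were dim in both fetal pools as well. They were thus tested through adult KO alone, and a lower call was barely possible for them. For the defining adipocyte genes Adipoq, Lep, Plin1 and Retn, no sample had a probe well above background on both of its arrays. The sum of the 8 adipocyte markers was 17.7 to 17.9 in adult KO against 32.7 to 33.3 in adult WT. It holds Cidec, which hepatocytes also express and which was the brightest of the tested adipocyte markers in adult WT. Cidec read 230.5 and 235.6 in adult KO against 2562 and 2558 in adult WT, a fall of 3.82 ± 0.13 on the log2 scale. Of the other tested markers, not called, Cfd (-1.09 ± 0.50) and Pparg (-0.14 ± 0.06) were lower in adult KO and Fabp4 (0.76 ± 0.04) was higher. The sum thus follows Cidec and gives no direction for the other adipocyte markers. The part of other cell types in the Fgf21 difference was not tested. In bulk RNA, fewer cells of a type and less RNA per cell cannot be told apart.

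Acat1 was lower in adult KO liver than in adult WT liver and not called in the fetal pools. Its processed signal was 6477 and 6400 in adult KO against 10480 and 10050 in adult WT. In the fetal pools it was 2415 and 2309 in KO against 2770 and 2749 in WT. Acat1 fell by 1.03 ± 0.03 on the log2 scale in adult KO (2.04-fold, adjusted p = 4.8e-07, limma), just past the 2-fold limit of a call, with a difference of -1.05 in slide row 1 and -1.01 in row 2. On unscaled signals the difference was -0.67, a 1.59-fold change, the adult KO arrays having the higher 75th percentile. Quantile normalization gave -0.82, median scaling -0.84, scaling to detected probes -0.89, normexp background correction -0.92 and the deposited value table -0.85, so the direction stayed and the call was lost in each of these 5. Normexp moved the median of all genes in this comparison by 0.01 and the other 4 moved it by 0.11 to 0.19. In the fetal pools the scaled difference was 0.02 ± 0.03, with 95% limits of -0.05 and 0.09, and the unscaled one was -0.22. The adult effect differed from the fetal effect by -1.05 ± 0.04 (adjusted p = 4.2e-06, limma), and this call was lost under the same 5 settings (median scaling gave -0.90 with an adjusted p of 0.137).

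Bdh1 was lower in adult KO by its brightest probe but short of 2-fold, and its probes differed among themselves. The brightest probe (A_51_P163106) read 16910 and 15430 in adult KO against 20850 and 20300 in adult WT. It read 10020 and 10030 in fetal KO against 12550 and 12490 in fetal WT. The scaled adult difference was -0.71 ± 0.04 (adjusted p = 8.2e-06, limma). That is 1.63-fold and short of a call. The fetal difference was -0.08 ± 0.04, with 95% limits of -0.17 and 0.02. Without scaling this probe differed by -0.35 in the adult samples and by -0.32 in the fetal pools, so the adult and fetal differences were then nearly equal. The second probe (A_55_P2181753) read 8658 and 7705 in adult KO against 9249 and 8280 in adult WT. Its unscaled adult values thus overlapped, and its scaled adult difference was -0.46 ± 0.07. Without scaling it differed by -0.10 in the adult samples and by -0.35 in the fetal pools, which turns the order of the adult and fetal differences.

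The remaining Bdh1 probe (A_52_P468343) had the lowest signal of them and a different pattern. It read 435 and 461 in adult KO against 376 and 377 in adult WT. The fetal values were 233 and 246 in KO against 417 and 471 in WT. Its scaled adult difference was -0.11 ± 0.08, with 95% limits of -0.29 and 0.08, and its unscaled difference was 0.25. Its fetal difference was -0.64 ± 0.08 (adjusted p = 0.0024, limma with each probe tested on its own). In that fit the adult effect minus the fetal effect was 0.54 ± 0.11 for this probe, -0.35 ± 0.09 for the second and -0.63 ± 0.06 for the brightest. All 3 values had an adjusted p under 0.05 in limma, but none reached 2-fold, and A_52_P468343 had the opposite sign to the others. A_55_P2181753 and A_52_P468343 are both listed under transcript NM_001122683 and the brightest under NM_175177, so the transcript label does not separate the probes that disagree. Heart muscle also expresses Bdh1. In the fetal pools 7 of 11 tested heart markers were called higher in fetal KO, against 1.93% of all genes called in either direction. The sum over all 12 was 457 to 459 in fetal KO against 197 to 200 in fetal WT. The part of heart RNA in the Bdh1 values was not tested.

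**Figure D2:**
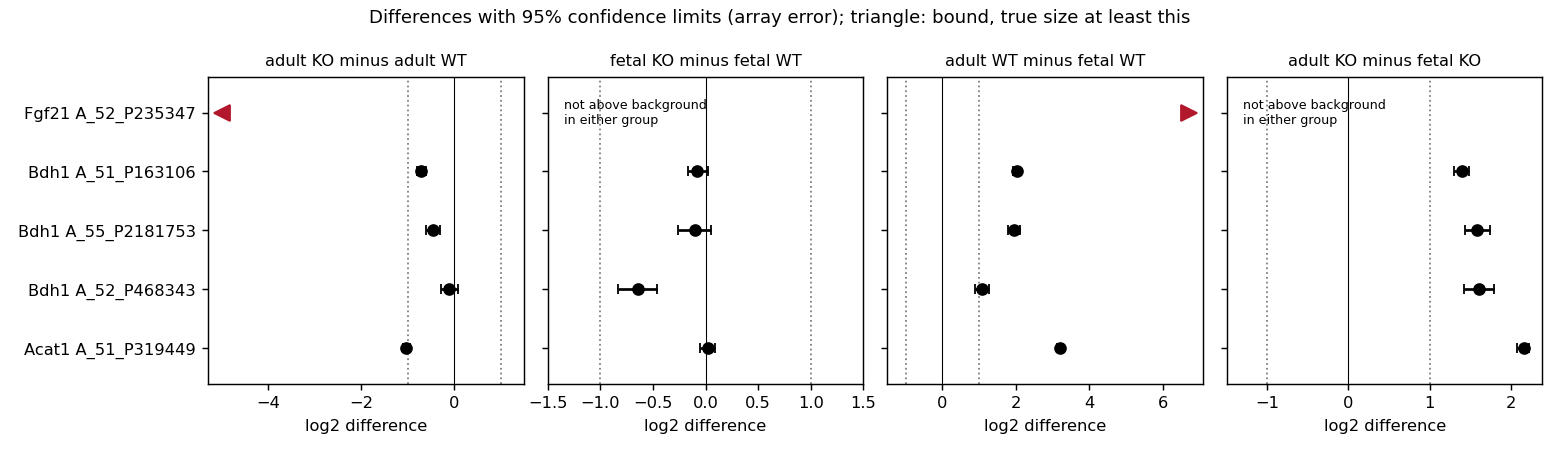
Log2 differences (horizontal axis) of each probe in 4 comparisons, with 95% limits from limma that cover array error; dotted lines mark 2-fold, and triangles mark the bounds for Fgf21 (31.7-fold lower in adult KO, 105-fold higher in adult WT than fetal WT). The 3 Bdh1 probes spread from -0.71 to -0.11 in the adult comparison and from -0.64 to -0.08 in the fetal one.

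Counted by gene, 2 of the 3 (Fgf21 and Acat1) were called lower in adult KO, with a call set at 2-fold or more and an adjusted p under 0.05. Of all 14582 genes tested, 2.52% were called lower in that comparison, and 32.7% were lower at an adjusted p under 0.05 without the 2-fold limit. Fgf21 was tested through adult WT alone, and the 3 genes were chosen with earlier results of these data known. The count of 2 is therefore a description and not a test of the 3 as a set. None of the 3 was called in the fetal comparison in limma. None had an unadjusted p under 0.05 there as reported, and 1.93% of all genes were called. Fetal Bdh1 passed an adjusted p of 0.05 in limma, short of 2-fold, with the mean of its probes (-0.28, adjusted p = 0.00355), quantile normalization (-0.17, adjusted p = 0.0251), normexp (-0.18, adjusted p = 0.0328) and the deposited table (-0.16, adjusted p = 0.03). For the difference between the knockout effects, Acat1 and Fgf21 were called, Fgf21 on background values in the fetal pools. Of all genes 9.76% were called in that term, and 51.8% had an adjusted p under 0.05.

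For Acat1 and for the brightest Bdh1 probe, differences between stages were larger in size than those between genotypes. Acat1 was 3.20 ± 0.03 higher on the log2 scale in adult WT than in fetal WT (9.22-fold, adjusted p = 4.5e-11, limma), and 2.16 ± 0.03 higher in adult KO than in fetal KO. Bdh1 was 2.03 ± 0.04 higher in adult WT than in fetal WT (4.07-fold, adjusted p = 2.2e-09, limma) and 1.4 ± 0.04 higher in adult KO than in fetal KO. All 3 genes were called higher in adult WT than in fetal WT, as were 27.4% of all genes. Fgf21 was tested through adult WT alone. In adult KO against fetal KO, Acat1 and Bdh1 were called higher, as were 25.8% of all genes. Unscaled differences in the WT comparison were smaller, at 1.89 for Acat1 and 0.72 and 0.64 for the brighter Bdh1 probes, and the sign turned for A_52_P468343 (-0.23), the fetal arrays having the higher 75th percentile. Other scalings and the deposited table moved the median of all genes in that comparison by -0.63 to -0.28, and normexp moved it by 0.19. Acat1 lay between 2.58 and 3.23 over all alternatives run. Age, feeding state, sex and pooling differ together between the stages.

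In order of mean level, adult WT stood highest for Acat1 and for each Bdh1 probe on the scaled values, followed by adult KO and then the fetal pools. The fetal pools could not be ordered by Acat1 or by the first 2 Bdh1 probes, whose 95% limits for the difference held 0. On A_52_P468343 the adult pair could not be ordered, and fetal KO lay below fetal WT. Without scaling that probe had another order, with mean signals of 448 in adult KO, 376.5 in adult WT, 240 in fetal KO and 444 in fetal WT.

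Around these members, genes of ketone body metabolism moved both ways in adult KO liver. Of 20 listed genes 17 were tested; 2 rose, 2 fell and 13 were not called, with a median difference of -0.23 against -0.10 over all genes. Over all genes 4.95% were called higher and 2.52% lower. The falls were Acat1 and Hadhb (-1.12 ± 0.03), the thiolase subunit of the trifunctional protein of beta-oxidation. The rises were Oxct1 (1.28 ± 0.05), the transferase that lets tissues use acetoacetate, and Aacs (1.24 ± 0.03), the cytosolic synthetase that turns acetoacetate toward lipid synthesis. Oxct1 read 393 and 405 in adult KO against 134 and 123 in adult WT. Aacs read 3025 and 2997 in adult KO against 1000 and 984 in adult WT. Without the 2-fold limit, 15 of the 17 had an adjusted p under 0.05 in limma, and 12 of the 17 differences were negative. Of all genes 32.7% were lower at that adjusted p, and the share in either direction is not given here.

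Other genes of the list were not called. The export-linked transporter gene Slc16a6, whose role in ketone release is known from zebrafish, differed by -0.89 ± 0.03. The cytosolic thiolase gene Acat2, of the sterol pathway, went the other way at 0.73 ± 0.05, as did the cytosolic dehydrogenase gene Bdh2 at 0.98 ± 0.04. With quantile, median or detected-probe scaling, or the deposited table, 3 genes rose (Aacs, Bdh2 and Oxct1) and none fell. With normexp Aacs alone was called. The difference of Oxct1 between adult WT and fetal WT was -3.87 ± 0.05, and the macrophage markers given above rose beside it in adult KO. Their part in the Oxct1 value was not tested.

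**Figure D3:**
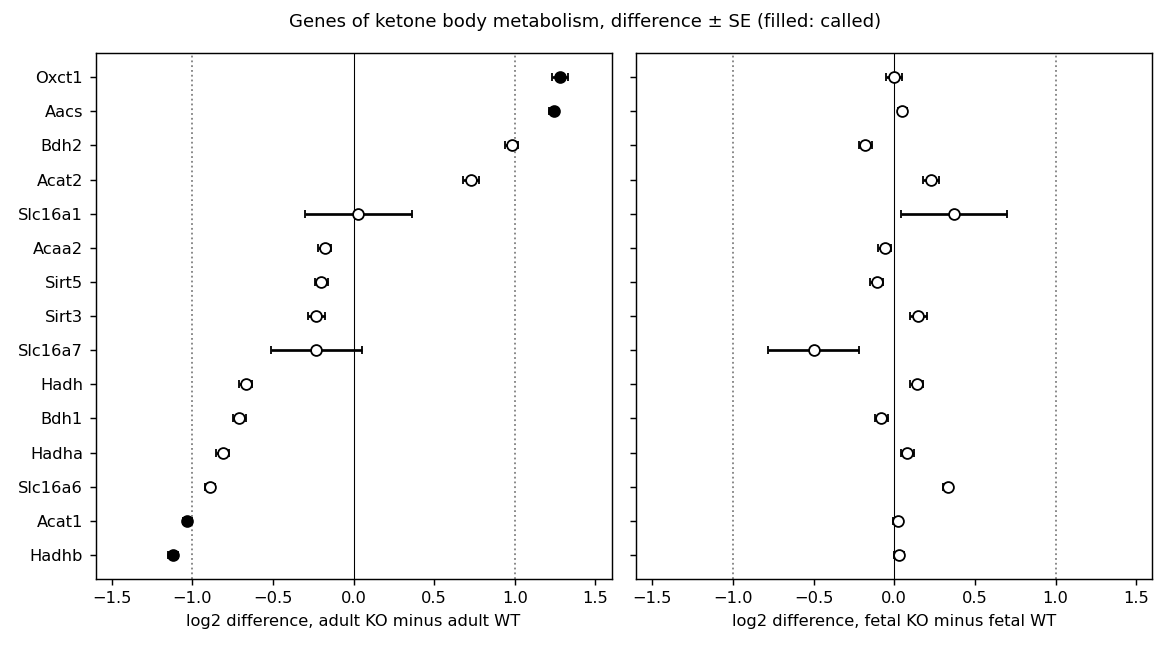
Log2 differences ± SE of 15 tested genes of ketone body metabolism, adult KO minus adult WT (left) and fetal KO minus fetal WT (right); filled points were called and dotted lines mark 2-fold. Oxct1 and Aacs lie past 1 and Acat1 and Hadhb below -1 in the adult samples, and no gene drawn passes 2-fold in the fetal pools.

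In the fetal pools limma called 0 of these 17 genes, against 1.93% of all genes. An unadjusted p under 0.05 was reached by 7, with no share of all genes given for that limit. The median was 0.02, equal to that of all genes. By stage, 14 of the 17 were called higher and 2 lower in adult WT than in fetal WT, with a median of 2.66 against 0 over all genes. The 2 lower were Oxct1 and Slc16a6. The 14 include Slc16a1, which was dim on both adult WT arrays. It read 23.56 and 14.04 there against 17.65 and 23.15 in fetal WT, so its call rests on the scaling. Of all genes 27.4% were called higher and 27.6% lower there.

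None of the tested receptors of FGF21 was called beside the hormone. Of 13 listed receptor and ligand genes 11 were tested in adult KO against adult WT, and Fgf21 was the 1 called. Among all genes 4.95% were called higher and 2.52% lower there. Without the 2-fold limit, 8 of the 11 had an unadjusted p under 0.05 in limma, and 8 an adjusted p under 0.05. Of all genes 32.7% were lower at that adjusted p. The shares in either direction are not given here, so these counts do not set the list apart. The co-receptor gene Klb read 788 and 733 in adult KO against 946 and 939 in adult WT (-0.67 ± 0.05). Fgfr4, the main FGF receptor of hepatocytes, differed by -0.21 ± 0.03, and Fgfr1, the receptor through which FGF21 acts in fat and brain, by -0.02 ± 0.06. Fgf1 differed by -0.73 ± 0.06 and Fgfr3 by 0.63 ± 0.04.

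Of 22 genes known to control Fgf21 transcription, limma called 0 in adult KO, against 4.95% of all genes called higher and 2.52% lower. Without the 2-fold limit, 13 of the 22 had an adjusted p under 0.05 in limma. Of all genes 32.7% were lower at that adjusted p. An unadjusted p under 0.05 was reached by 15, and the median was -0.10, equal to that of all genes. The shares of all genes in either direction at these limits are not given here, so neither count sets the list apart. Ppara read 9507 and 8803 in adult KO against 12210 and 11520 in adult WT (-0.73 ± 0.05). Creb3l3, a liver factor that acts with PPAR-alpha on Fgf21, differed by -0.72 ± 0.03, Atf4 by -0.48 ± 0.04 and the coactivator gene Ppargc1a by -0.54 ± 0.13. The sugar-sensing factor gene Mlxipl (0.10 ± 0.04) and the clock gene Nr1d1 (0.04 ± 0.12) differed by less. These values give RNA levels and say nothing of the activity of the factors.

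Of the listed PPAR-alpha targets, 19 of 34 fell and 0 rose in adult KO, with a median of -1.01 against -0.10 over all genes. Over all genes 2.52% were called lower and 4.95% higher. The list includes Fgf21, and its largest other falls were those of Acot3, Cidec, Cyp4a14 and Acot2, from -5.08 to -2.71. Between 12 and 13 of the 34 fell with normexp, with the deposited table or under the other scalings. That many of these genes were lower in this sample was known when the list was written, so it is no separate support for the Fgf21 result. In the fetal pools limma called 0 of the 34, against 1.93% of all genes, and 17 had an unadjusted p under 0.05. No share of all genes is given for that unadjusted limit.

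The genes whose scaled values over the 8 arrays ran closest to each member are given as a description, since the 8 arrays stand for 4 RNA samples. For Fgf21, 3 of those 4 samples were not well above background, so its values set adult WT against the rest. For Fgf21 they were Hsph1, Slc27a1, Wnt5b, Eno1b and Psmd2, with Pearson's r from 0.9967 to 0.9979. Slc27a1, a fatty acid transport gene, differed by -2.61 in adult KO, against -0.69 for Hsph1. For Acat1 they were Zfp612, Cbr1, Gaa, Lpgat1 and Bmp1 (r from 0.9997 to 0.9999), with adult differences from -1.07 to -0.64. For Bdh1 they were AW209491, Prpsap1, Plin2, Foxa3 and Anks1 (r from 0.999 to 0.9992). The Fgf21 values below background enter these correlations as read.

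**Figure D4:**
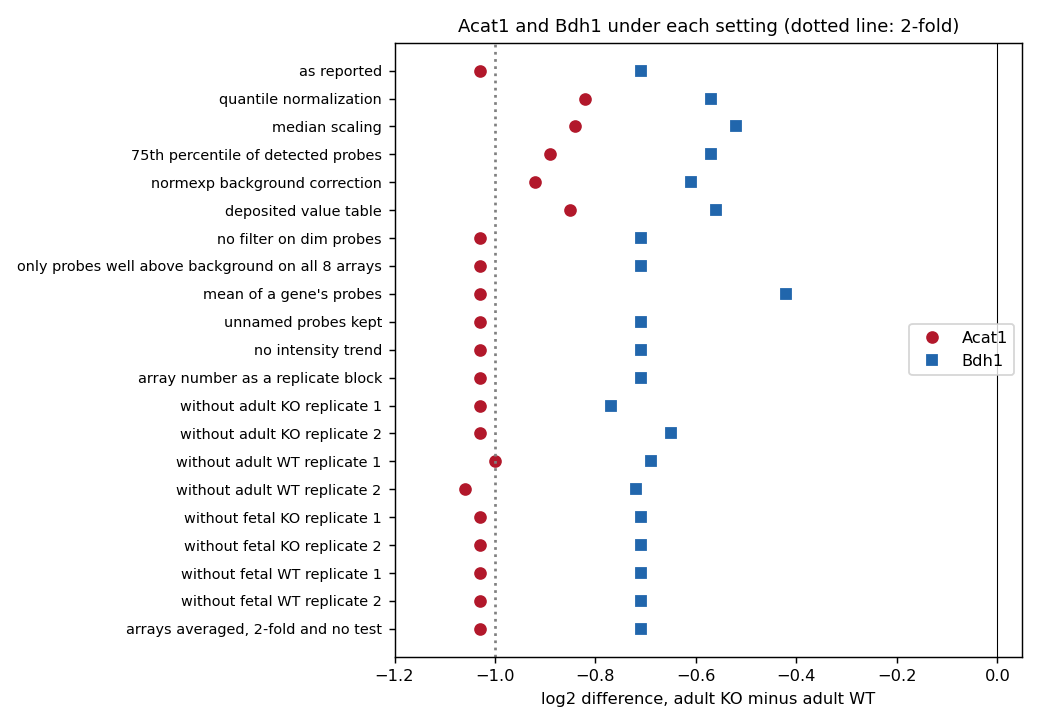
Log2 difference between adult KO and adult WT (horizontal axis) of Acat1 and of Bdh1 under each processing setting, with the dotted line at 2-fold. Acat1 lies at -0.82 to -0.92 under 5 settings of scaling, background or source and from -1.06 to -1 under the others drawn, while Bdh1 lies between -0.77 and -0.42.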

How the data were processed

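Per the labels' protocols, 200 ng of Trizol-extracted RNA per sample was labelled with Cy3. Per the file headers, the authors' arrays were read with Agilent Feature Extraction 10.7.3.1, and the deposited scanner files hold the processed signal, median signal and local background of each spot as intensity values, beside quality flags. The deposited value table holds linear intensity values whose normalization the sources used here do not give. Log2 processed signals were scaled by subtracting each array's 75th percentile. Control spots were left out, outlier spots (92 to 188 on each array) were removed, and no spot was saturated. Probes were named through the RefSeq table of GRCm38.p6 (26762 named, 28919 not). Testing needed a probe well above background on both duplicates in 1 or more groups, and the brightest stood for its gene. Differences were tested with limma 3.58.1 in R 4.3.3 (intensity trend, 1 fit of 4 groups) over 14582 genes, with Benjamini-Hochberg adjustment, and ± gives limma's standard error. A bound sets the bright group's mean against, per array of the dim group, the higher of the probe's own signal and the lowest signal well above background. The fit was tested on simulated data. The members, gene lists and tests were chosen with earlier results of these data known. Named genes were the members, list genes, the 5 largest called differences among PPAR-alpha targets and the 5 genes most correlated with each member. Alternatives were other scalings, normexp with an offset of 50, the deposited table, filters, probe rules, variance model, block and each array left out. A further alternative averaged the arrays and applied the 2-fold limit with no test. Testing each named probe on its own was added after the data were seen. The number of arrays limits the precision. Some genes of the ketone body list are counted with it but not reported here by themselves.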

Additional observations from a re-analysis of the deposited data

Results flagged for a closer look

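The interaction term of limma, the adult minus the fetal knockout effect, had an adjusted p under 0.05 for each of the 3 genes as reported, but this did not hold under every setting. For Acat1 the adult effect minus the fetal effect was -1.05 on the log2 scale (adjusted p = 4.2e-06, limma; 0.137 with median scaling). For Bdh1, by its brightest probe, it was -0.63 (adjusted p = 1.1e-04, limma), and the dimmest Bdh1 probe gave 0.54. With the mean of its probes Bdh1 gave -0.15 (adjusted p = 0.0514, limma) and with median scaling -0.48 (adjusted p = 0.581, limma). On unscaled signals the brightest probe had an adult difference of -0.35 and a fetal one of -0.32. For Fgf21 the fitted value was -7.27 (adjusted p = 1.0e-05, limma), but both fetal values lay in background, so this number has no meaning as a size. Of all genes tested, 51.8% differed between stages at an adjusted p under 0.05 in this term, which measures array error only. With 2 arrays in each group, no array could be tested as lying far from its group.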

How the results depend on the processing

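Fgf21 kept its direction and its call in adult KO against adult WT under all 20 alternatives that included it. The differences ran from -7.24 to -3.61, the last with normexp. Among the 20, averaging the arrays applied the 2-fold limit with no test. Fgf21 has 1 probe, so rules on a gene's probes could not change this difference, nor could leaving out a fetal array. Fgf21 could not be tested with only probes well above background on all 8 arrays. Bdh1 stayed lower in adult KO and uncalled under all 21 alternatives (-0.77 to -0.42, the last with the mean of its probes). Its fetal difference lay between -0.28, with the mean of its probes, and -0.04, with median scaling. The number of the 3 genes called, 2 as reported in the adult comparison and 2 in the difference between effects, was 1 under quantile normalization, median scaling, detected-probe scaling, normexp, the deposited table and the strictest filter. The first 5 of these moved Acat1 below 2-fold and the filter left out Fgf21. In adult KO against fetal KO it was 1 with quantile normalization and with median scaling, where Bdh1 was 0.91 and 0.92. The near-zero fetal difference of Acat1 (0.02) changed sign with quantile normalization (-0.04), detected-probe scaling (-0.02), normexp (-0.04), the deposited table (-0.03) and without the first fetal KO array (-0.01), with a range of -0.01 to 0.05 over the arrays left out in turn. Leaving out each array in turn kept the number of the 3 genes called as reported in every comparison, with Acat1 between -1.06 and -1 in the adult samples.

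Over all genes, normexp changed the calls to 347 (1090 as reported) in the adult, 67 (282) in the fetal and 472 (1423) in the interaction comparison. The strictest filter gave 501, 26 and 696, and 5330 (8018) in adult WT against fetal WT and 5142 (7777) in adult KO against fetal KO. With unnamed probes kept, which adds tests, the counts were 1703 in the adult, 2357 in the interaction, 13000 in the WT stage and 12151 in the KO stage comparison. With the array number as a replicate block, Acat1 stayed at -1.03 and 1087 genes were called in the adult comparison. The numbers only name the arrays, and deviations of first arrays correlated between groups at -0.14 to 0.08. Signal near background limits Fgf21 in 3 of the 4 samples.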
